A study of Mus musculus with 2 samples.

Results

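The MAP kinase cascade was examined in RAW 264.7 cells, a mouse macrophage-like line that can form osteoclast-like cells, as all genes whose array name has the form Map4k, Map3k, Map2k or Mapk followed by a number. This rule took 40 genes of 27962 gene names on the array, with 78 probes on 114 spots. By tier these were 5 Map4k genes, 15 Map3k genes, 7 Map2k genes and 13 Mapk genes. The study compared 1 array of cells labelled control with 1 array of cells labelled RCCS, the rotary cell culture system, a rotating vessel that models microgravity. Its stated purpose was to learn how modelled microgravity affects precursors of osteoclasts, the bone-resorbing cells. Per the labels, cells were kept in the RCCS for 24 h and received RANKL, the cytokine that drives osteoclast formation, at 80 ng/ml over 24 h, while the control cells were handled alongside on the ground. All cells were of the same unmodified line and grew in the same medium. The protocol is worded alike for both samples and does not settle whether the control cells received RANKL, so each difference is given as RCCS against control.

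In this cascade, a MAP4K at the membrane can activate a MAP3K, which phosphorylates a MAP2K, which in turn phosphorylates a MAP kinase on a threonine and a tyrosine of its activation loop. The terminal kinases are the ERKs, the JNKs and the p38 kinases, which phosphorylate transcription factors and further kinases and are switched off by dual-specificity phosphatases. In osteoclast precursors, the RANKL receptor RANK recruits TRAF6, which activates the MAP3K TAK1 and through it JNK, p38 and NF-kappa-B. The arrays measured mRNA of these kinases, not their phosphorylation or activity.

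Each value is the processed signal of a probe, a background-subtracted intensity, and the log2 ratio is RCCS minus control after each array was scaled to its own 75th percentile, 849 for control and 966 for RCCS. Signals are given before that scaling, so a gene with equal signals on both arrays has a log2 ratio below 0. With 1 array per condition there is no replicate check, no test and no p-value for any difference. The value after ± is the reach of a 95% interval to either side, taken from the scanner software's spot error. It covers neither cultures nor RNA extraction nor labelling, nor differences between the probes of a gene. Control cells had 23693 probes (57.5%) well above background and RCCS cells 24936 (60.6%). Both arrays measured 16023 genes, with a median log2 ratio of -0.13. The macrophage label was borne out by its markers. Cd68, Lyz2, Csf1r and Cd14 were measured on both arrays, and 14 of 15 macrophage and osteoclast markers were. Of 16 markers of T cells, B cells, natural killer cells, fibroblasts, epithelium, endothelium and granulocytes, 5 (Cd8a, Pdgfra, Pecam1, Cdh5 and Elane) were above background on neither array. The other 11 read at most 149 on their brightest control probe.

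Of the 40 members, 37 were measured. The other 3 were not well above background on either array. They were Map3k9, the mixed-lineage kinase MLK1 (2 probes, 5.0 to 5.84 in control cells and 4.55 to 15.8 in RCCS cells), Mapk4, the atypical kinase ERK4 (4.98 and 4.49), and Mapk10, the JNK3 gene best known from neurons (3 probes, 4.89 to 7.76 and 4.49 to 14.6). Of the 78 probes, 56 were measured on both arrays, 19 on neither and 3 on 1 array only.

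Most cascade genes differed little between the arrays. Mapk13, which encodes p38 delta, was 2.78-fold higher in RCCS cells and Map4k3, which encodes GLK, was 2.30-fold higher. These were 2 of 37 measured members at least 2-fold higher (5.41%), where 3.88% of all measured genes were. No member was at least 2-fold lower, where 3.76% of all measured genes were. At 1.5-fold, 5 members were higher (Mapk13, Map4k3, Map4k4, Map3k5 and Map3k6), against 9.74% of all measured genes, and 2 were lower (Map2k6 and Mapk6), against 14.8%. The members' median log2 ratio was 0.04, which is 0.17 above that of all measured genes, and 28 of 37 lay above the median of all genes. The interquartile range was -0.11 to 0.44 for members and -0.42 to 0.19 for all genes. Within 0.5 log2 of 0 lay 27 members (73.0%) and 68.5% of all genes. The spot-error interval lay above 0 for 12 members, where it did for 15.7% of all measured genes, and below 0 for 3, where it did for 27.5%. It held 0 for the other 22 members. Mapk8 was among the 3 below 0 although its measured probes ran from -1.36 to 0.17, a spread that the interval leaves out.

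**Figure D1:**
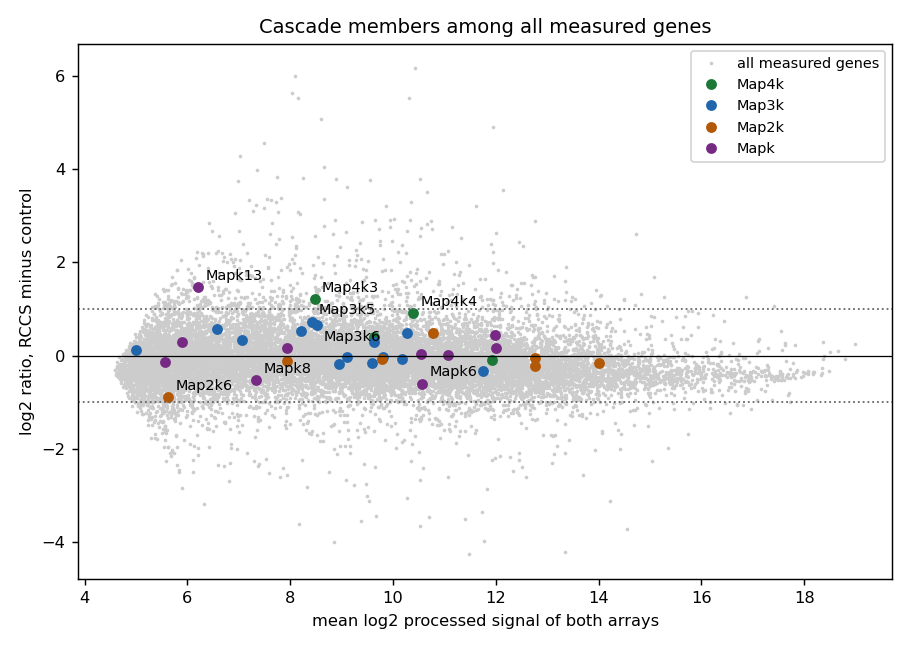
Log2 ratio, RCCS minus control, against the mean log2 processed signal of both arrays, with 1 grey point for each of the 16023 measured genes and coloured points for 35 of the 37 measured members by tier. Dotted lines mark 2-fold differences; Mapk13 (1.48) and Map4k3 (1.20) lie above the upper line and no member lies below the lower one.

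The proximal promoters of the 2 members past 2-fold are shown because these genes, a MAP4K and a MAP kinase, had the largest differences as processed here. Each sequence is 300 bases from RefSeq, assembly GRCm38.p6, running 5′ to 3′ on the gene's strand from 250 bases before the transcription start to 50 bases after it. Map4k3 lies on the minus strand at chr17:80727976-80728275 and Mapk13 on the plus strand at chr17:28769067-28769366. Capitals mark GC boxes, GGGCGG read on either strand, the letters bound by Sp1-family factors.
Map4k3: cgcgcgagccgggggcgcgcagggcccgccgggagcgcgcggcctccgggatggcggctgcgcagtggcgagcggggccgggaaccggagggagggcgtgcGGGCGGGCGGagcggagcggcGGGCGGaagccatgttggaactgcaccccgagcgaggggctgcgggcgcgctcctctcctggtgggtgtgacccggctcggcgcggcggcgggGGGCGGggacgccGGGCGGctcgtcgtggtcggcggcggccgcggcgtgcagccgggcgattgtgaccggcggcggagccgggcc
Mapk13: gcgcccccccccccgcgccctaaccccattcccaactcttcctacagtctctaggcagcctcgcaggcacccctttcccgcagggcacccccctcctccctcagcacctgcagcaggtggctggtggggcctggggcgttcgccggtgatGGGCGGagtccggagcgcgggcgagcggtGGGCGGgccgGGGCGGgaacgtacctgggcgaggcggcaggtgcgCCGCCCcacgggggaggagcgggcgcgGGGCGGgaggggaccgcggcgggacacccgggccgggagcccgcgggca
Both promoters held 5 GC boxes, of which some in Map4k3 overlap, and both were rich in G and C (82.7% in Map4k3 and 78.0% in Mapk13). A GC box stood in 35.7% of 32851 mouse promoters of this length and in 27 of 43 promoters (62.8%) of the 32 members that could be matched. Neither sequence held an AP-1 site (TGANTCA), an ETS core (CCGGAA), an E-box (CACGTG), a CRE core (TGACG) or a TATA box (TATAAA), each searched on both strands. Among the 43 member promoters, AP-1 sites stood in 6.98% (7.81% of all promoters), ETS cores in 25.6% (14.9%), E-boxes in 6.98% (7.15%), CRE cores in 30.2% (20.8%) and TATA boxes in 6.98% (13.6%). These matches describe the letters only.

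In the uppermost tier, the MAP4Ks, 3 of 5 genes had spot-error intervals above 0, as 15.7% of all measured genes did. All 5 lay above the median of all genes, and the tier's median log2 ratio was 0.40, the highest of the 4 tiers as processed here. With no filter on dim probes it was 0.10, below the 0.14 of the Map3k tier. Map4k3, whose product GLK links stress and nutrient signals to JNK and mTORC1, was read by a pair of probes. The first gave signals of 150 in control and 391 in RCCS cells, and the second gave 324 and 855. Their log2 ratios of 1.20 and 1.21 were nearly equal, and the gene's value was 1.20 ± 0.29, at the 97.5 percentile of all measured genes. With normexp background correction it was 0.94, just short of 2-fold. Map4k4, whose product HGK acts on JNK and on the cytoskeleton during cell migration, had signals of 919 and 1959 and a log2 ratio of 0.91 ± 0.40, or 1.87-fold. That value rested on 1 probe, since the gene's other probe was not above background, and it was 0.34 when dim probes were also averaged in. Map4k5, which encodes the related kinase KHS, was higher by 0.40 ± 0.28, with probes at 429 and 600 and at 965 and 1562, and it was 0.10 with dim probes averaged in.

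Map4k1 was near equal on the arrays. It encodes HPK1, a blood-cell kinase that restrains antigen-receptor signalling in lymphocytes. Its signals were 3759 and 4007 and its log2 ratio was -0.09 ± 0.40. Within one kinase family the values thus ranged from -0.09 to 1.20. MAP3K-level and related kinases named outside the pattern, such as the TAO and MST kinases, had a median of -0.03 over 9 measured of 11 listed. None of them was 2-fold different, and the largest values were -0.45 for Taok2, 0.34 for Stk3, 0.33 for Taok1 and -0.33 for Taok3. Their probes ran from -0.74 to -0.14, 0.21 to 0.46, 0.09 to 0.78 and -0.52 to -0.02, in that order.

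**Figure D2:**
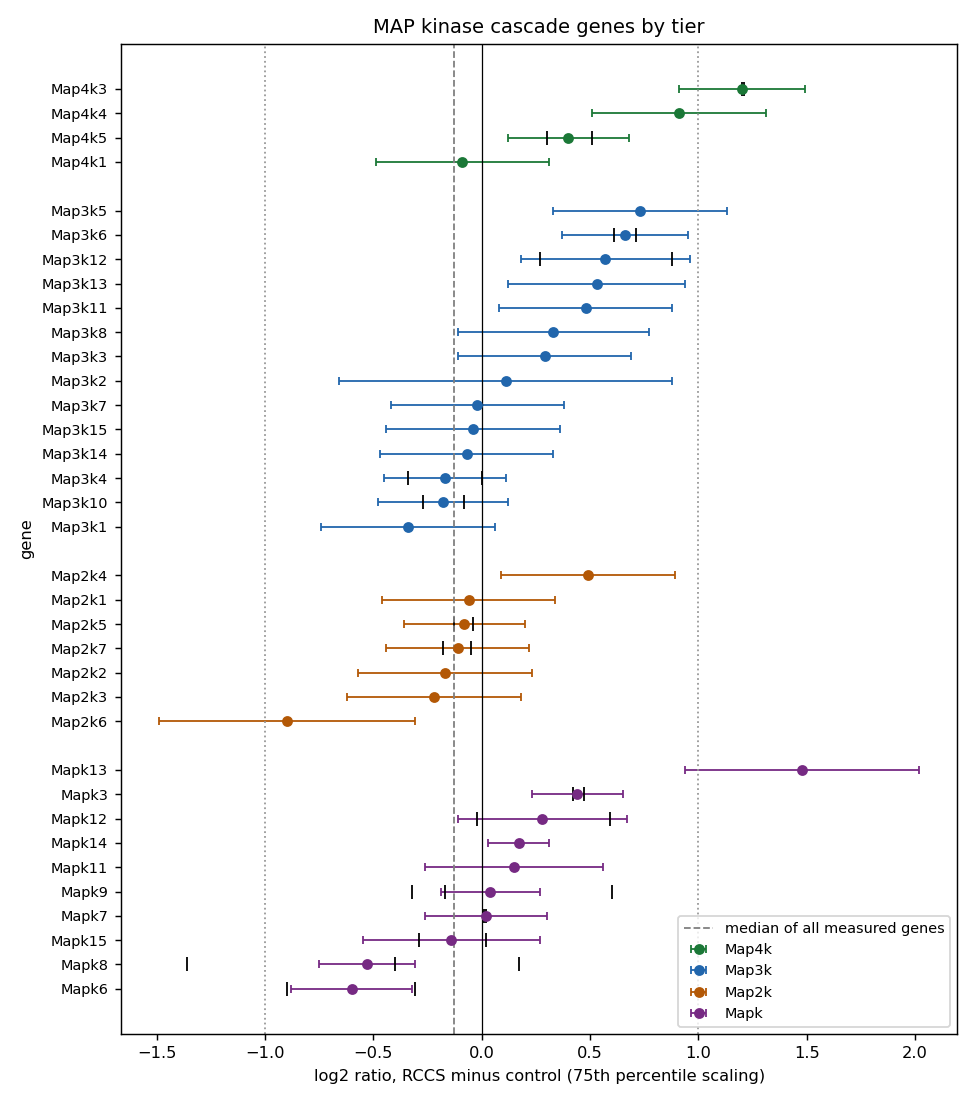
Log2 ratio of 35 of the 37 measured members by tier, RCCS minus control; points are gene values, bars the 95% interval from spot error, and black ticks the single probes of genes with several measured probes. The dashed line is the median of all measured genes (-0.13) and dotted lines are 2-fold differences; the Map4k tier reaches from -0.09 to 1.20 and the Mapk tier from -0.60 to 1.48.

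Among the MAP3Ks, 14 of 15 genes were measured, with a median of 0.20 and a range from -0.34 for Map3k1 to 0.73 for Map3k5. The 5 highest values belonged to the ASK family and to the mixed-lineage and DLK kinases, and the MEKK family lay near the median of all genes. ASK kinases are held inactive by thioredoxin and respond to oxidative stress. Map3k5 (ASK1) had signals of 249 in control and 468 in RCCS cells, a log2 ratio of 0.73 ± 0.40 or 1.66-fold. Map3k6 (ASK2, which forms a complex with ASK1) had probes at 214 and 398 and at 348 and 604, which gave 0.66 ± 0.29 or 1.58-fold. The spot-error intervals of both lay above 0. Map3k15 (ASK3), at 524 and 580, was at -0.04 ± 0.40. Txn1, the thioredoxin gene, was at -0.25.

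The mixed-lineage kinases act on JNK through MAP2K4 and MAP2K7. Map3k11 (MLK3) had signals of 985 and 1563 and a ratio of 0.48 ± 0.40. Map3k13 (LZK) had 232 and 381 and a ratio of 0.53 ± 0.41. A further probe of it was above background in RCCS cells only (22.5 and 30.1, a bound of 1.09-fold higher without spot error). That probe's ratio was 0.23 ± 0.91, an interval that held 0. Map3k12 (DLK, a kinase of the axon injury response) was at 0.57 ± 0.39, although its probes differed, at 0.27 for the dimmer (35.9 and 49.2) and 0.88 for the brighter (151 and 315). The spot-error intervals of these 3 genes lay above 0. With dim probes averaged in, Map3k13 was at 0.14 and Map3k12 at 0.25, both within that error, and Map3k11 stayed at 0.48. The interval of Map3k10 (MLK2) held 0, at -0.18 ± 0.30 with probes at 2368 and 2231 and at 101 and 109. The 4 measured genes of this group had a median of 0.51.

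The MAP3Ks best known downstream of RANK, TNF receptors and Toll-like receptors differed little. Map3k7, which encodes TAK1, gave 845 and 947, a log2 ratio of -0.02 ± 0.40. Map3k14, which encodes NIK, the kinase of the non-canonical NF-kappa-B pathway, gave 1103 and 1197, or -0.07 ± 0.40. Map3k8, which encodes TPL2, the kinase that links p105 degradation to ERK in macrophages, gave 112 and 161, or 0.33 ± 0.44. All 3 intervals held 0. The 4 MEKK genes had a median of -0.03. Map3k1 (MEKK1) had signals of 3641 and 3278 and a ratio of -0.34 ± 0.40. Map3k3 (MEKK3) had 670 and 933, or 0.29 ± 0.40, and Map3k2 (MEKK2) was dim, at 29.0 and 35.6, or 0.11 ± 0.77. Map3k4 (MEKK4, a partner of the GADD45 proteins) was at -0.17 ± 0.28, with probes at 340 and 306 and at 1751 and 1989. None of the MEKK intervals excluded 0. A pair of newer MAP3K symbols appears on the array under older names and so falls outside the rule. Map3k20 (ZAK, named B230120H23Rik) was at -0.20 and Map3k21 (named BC021891) at -0.21.

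Among adaptors and activators that act on MAP3Ks, all 20 listed genes were measured, their median was -0.20 and none was 2-fold different. The largest values were -0.74 for Gadd45b, -0.61 for Traf2, -0.39 for Rac1 and 0.34 for Gadd45a. Traf6, the RANK adaptor, was at 0.02. Of the genes that carry signals from RAS to RAF, 20 of 21 were measured, with a median of -0.17. None was 2-fold different, and the largest values were -0.63 for Rasgrp1, 0.62 for Rasa1, -0.58 for Hras1 and 0.55 for Mras. Rasgrp1 was dim and rested on 1 of its 2 probes (53.1 and 39.1), and the brightest Mras probe gave 97.4 and 148.

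All 7 MAP2K genes were measured, and this tier stood closest to the bulk of all genes, with a median of -0.11, or 0.02 above the median of all genes. Map2k4, which encodes MKK4, the kinase that activates JNK and to a lesser degree p38, was the only one above 0, although with spike-in scaling all but Map2k6 were. Its signals were 1386 in control and 2209 in RCCS cells, and its log2 ratio was 0.49 ± 0.40. Map2k6, which encodes MKK6, a dedicated activator of p38, was lower. Its signals were 63.2 and 38.6, a ratio of -0.90 ± 0.59 or 1.86-fold lower. That value rested on a dim probe, its other 2 probes were at background, and normexp background correction with quantile normalization put it at -0.32.

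The partners of these genes were near equal. Map2k3, which encodes MKK3, the other dedicated p38 activator, had signals of 7067 and 6876 and a ratio of -0.22 ± 0.40. Map2k7, which encodes MKK7, the dedicated JNK activator, was at -0.11 ± 0.33, with probes at 61.0 and 61.2 and at 933 and 1024. A further probe of Map2k7 was above background in control cells only (28.4 and 7.94, a bound of 1.52-fold lower in RCCS cells without spot error). That probe's ratio had a wide interval, at -2.03 ± 1.85. Map2k1 (MEK1) had 6661 and 7282, or -0.06 ± 0.40, Map2k2 (MEK2) had 16423 and 16626, or -0.17 ± 0.40, and Map2k5 (MEK5) was at -0.08 ± 0.28. The gene values of these partners were within spot error of 0.

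Among the 11 measured MAP kinase genes, the median was 0.04 and the values ranged from -0.60 for Mapk6 to 1.48 for Mapk13. Mapk13 encodes p38 delta, the p38 kinase that phosphorylates and inhibits PKD1 and eEF2 kinase. Its signals were 41.6 in control and 132 in RCCS cells, and its log2 ratio of 1.48 ± 0.54 stood at the 98.5 percentile of all measured genes. The control signal lay close to the lowest signal called well above background on that array, 24.2, and the ratio was 0.76 and 0.83 under the settings with normexp background correction, short of 2-fold. The other p38 genes were nearer 0. Mapk14, which encodes p38 alpha, the main p38 of osteoclast precursors, had signals of 3647 and 4667 and a ratio of 0.17 ± 0.14. Mapk11 (p38 beta), at 218 and 275, was at 0.15 ± 0.41. Mapk12 (p38 gamma) was at 0.28 ± 0.39, with dim probes at 51.4 and 87.9 and at 50.3 and 56.3. The 6 genes of the p38 branch had a median of 0.16 and held both the highest and the lowest member as processed here. Both ranks rest on dim probes. Under the normexp settings Map4k3 (0.94 in both) and Map4k4 (0.94 and 0.96) stood above Mapk13. Mapk6 (-0.54 and -0.49) then stood below Map2k6 (-0.42 and -0.32).

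In the classical ERK branch, 1 of 4 genes had an interval that lay above 0. Mapk3, which encodes ERK1, was higher by 0.44 ± 0.21, and its probes gave 3390 and 5153 and gave 3149 and 4946. The median of the branch was -0.05. In the ERK5 branch, Mapk7, which encodes ERK5, was at 0.02 ± 0.28, with signals of 1982 and 2277 and of 2010 and 2313. The median of the branch with Map2k5 was -0.03.

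**Figure D3:**
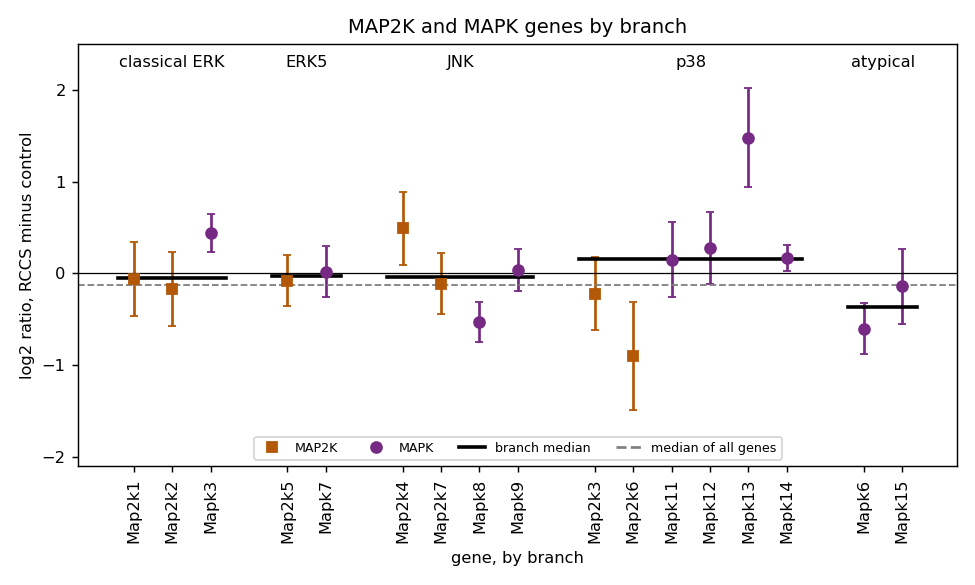
Log2 ratio of measured MAP2K genes (squares) and MAP kinase genes (circles) by branch, RCCS minus control, with 95% intervals from spot error, the median of each branch (thick line) and the median of all measured genes (dashed). The p38 branch spans from -0.90 for Map2k6 to 1.48 for Mapk13, and the classical ERK genes lie between -0.17 and 0.44.

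In the JNK branch, the probes of one gene did not tell the same story. Mapk8, which encodes JNK1, the JNK needed for RANKL-driven osteoclast formation, was at -0.53 ± 0.22. One probe gave 139 in control and 61.6 in RCCS cells, a ratio of -1.36, another gave 701 and 605, or -0.40, and another gave 61.8 and 78.9, or 0.17. A further probe was above background in RCCS cells only, at 23.0 and 54.5, a bound of 1.98-fold higher without spot error. That probe's ratio was 1.06 ± 0.95. The fifth probe was above background on neither array (5.58 and 4.87). Mapk8 was the only member whose measured probes lay more than 1 log2 apart, so no single direction describes it. Mapk9, which encodes JNK2, was at 0.04 ± 0.23, with probes at -0.32 (2371 and 2163), -0.17 (2670 and 2695) and 0.60 (423 and 727). The 4 measured JNK-branch genes had a median of -0.04.

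Among the atypical kinases, Mapk6 encodes ERK3, which is activated by group I PAK kinases rather than by a MAP2K. It was lower by both of its measured probes, with 3577 and 3292 (-0.31) and 867 and 527 (-0.90), and the gene's value was -0.60 ± 0.28, or 1.52-fold lower. Its other probe was above background on neither array (7.72 and 10.1), and the value was -0.33 with that probe averaged in. Mapk15, which encodes ERK8, was dim, with probes at 40.7 and 47.0 and at 53.5 and 49.7, and stood at -0.14 ± 0.41.

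Where probes of a gene lay far apart, the one nearer the 3′ end more often had the higher ratio. Of all genes whose outermost measured probes lay at least 500 bases apart in the array's annotation, 4315 could be compared. In 3482 of them (80.7%) the probe nearer the 3′ end had the higher RCCS to control ratio, with a median difference of 0.25 log2. Of 11 such members, 10 (90.9%) went the same way, with a median of 0.34. The difference was 0.96 for Mapk8 (from -1.36 to -0.40), 0.91 for Mapk9 (from -0.32 to 0.60), 0.61 for Map3k12, 0.60 for Mapk6 (from -0.90 to -0.31) and 0.34 for Map3k4. In Mapk8 the measured probe between the outer ones was at 0.17, so its ratios did not rise steadily along the transcript. Map4k3 was the exception among the 11 at -0.02, with its probes 535 bases apart. Members with probes closer than 500 bases did not go this way. Their differences were -0.61 for Mapk12 (21 bases), -0.31 for Mapk15 (458 bases), -0.10 for Map3k6, -0.05 for Mapk3 and 0.00 for Mapk7. With only the 5′-most measured probe of each gene, Mapk8 was 2-fold lower, and with only the 3′-most it was at -0.40. Of the 37 measured members, 21 had a single measured probe, and the part of probe position in their ratios was not tested.

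A few probes were printed 10 times on each array, which shows the spot spread directly. For Mapk3, 9 usable spots gave 3390 ± 91.5 in control and 5153 ± 132 in RCCS cells (SD over spots), and the spots' log2 ratios ran from 0.40 to 0.45. For Mapk14, 8 spots gave 3647 ± 143 and 4667 ± 149, with ratios from 0.12 to 0.22. Unscaled, the Mapk3 spots ran from 3294 to 3567 in control and from 5008 to 5345 in RCCS cells. Those of Mapk14 ran from 3478 to 3939 and from 4525 to 4876. These unscaled ranges include the brighter signal of the RCCS array (75th percentile 966 against 849). The Mapk8 probe at 139 ± 9.76 and 61.6 ± 8.14 was noisier, with ratios from -1.71 to -1.09 over 10 spots. Its control spots ran from 121 to 148 and its RCCS spots from 50.9 to 75.7. The highest of its spot ratios, -1.09, still lay below the ratios of the other measured Mapk8 probes.

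**Figure D4:**
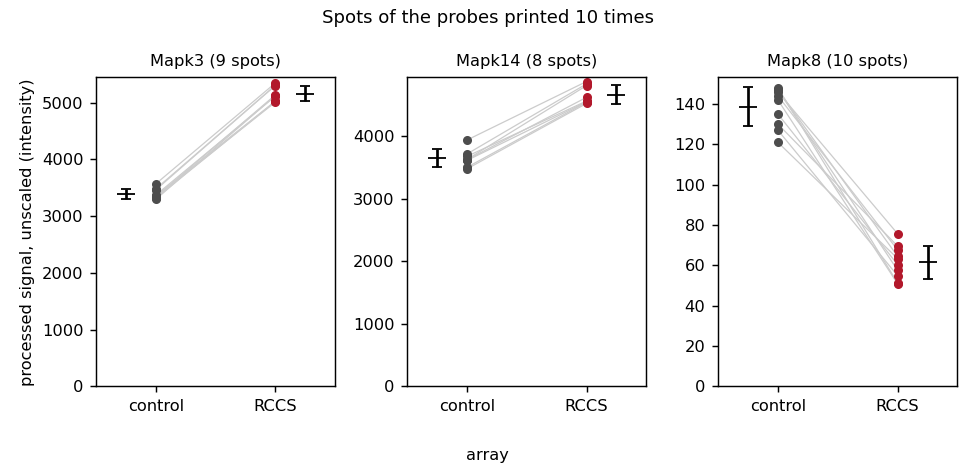
Unscaled processed signal of single spots of 3 probes printed 10 times, control (grey) against RCCS (red), with lines joining the same spot position and bars giving the mean ± SD over usable spots. Before scaling, spots of Mapk3 and Mapk14 are all higher on the RCCS array, which is also the brighter array, and those of Mapk8 are all lower.

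Among the phosphatases that switch the cascade off, the largest difference exceeded that of any cascade kinase. Of 17 MAP kinase phosphatases listed, 15 were measured, with a median of 0.07, and 3 were at least 2-fold higher and none 2-fold lower, against 3.88% and 3.76% of all measured genes. Dusp6, which dephosphorylates ERK in the cytoplasm and is itself an ERK-induced gene, had signals of 1573 in control and 9371 in RCCS cells, a log2 ratio of 2.39 or 5.24-fold. Dusp16, a JNK and p38 phosphatase, was at 1.17 (probes at 0.67 and 1.67) and Dusp4, a nuclear phosphatase, at 1.09 (probes at 0.89 and 1.29). The lower probe of each was under 2-fold. Dusp2, a phosphatase of activated immune cells, was at -0.85. Dusp1, which acts on p38 and JNK, was at 0.45.

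Of 18 nuclear targets of MAP kinases, 17 were measured, with a median of -0.24, below that of all genes, and 2 were at least 2-fold higher, against 3.88% of all measured genes. Mef2a, a transcription factor phosphorylated by p38 and ERK5, was at 1.07, with probes from 0.64 to 1.63. Jun, the JNK target and AP-1 subunit, had signals of 183 and 435 and a ratio of 1.06. Ets2 was at 0.95 and Elk3 at 0.94, both ETS factors phosphorylated by ERK. Other members of these families had ratios below 0. The ETS factor Elk4 was dim and at -0.88, with probes from -1.40 to -0.35, and Ets1 was dim and at -0.28 by 1 of its 4 probes. The AP-1 subunits Fos, Fosl1 and Jund were at -0.45, -0.37 and -0.24, where the median of all genes was -0.13. Of 11 kinases activated by MAP kinases, 8 were measured with a median of -0.04 and none 2-fold different. Mapkapk2, the MK2 kinase downstream of p38, was at -0.61, Rps6ka4 (MSK2) at 0.54, Rps6ka5 (MSK1) at -0.38 and Mapkapk5 at -0.29. Of 17 scaffold genes listed, 14 were measured with a median of 0.13 and none 2-fold different. Among them, Cnksr3 was at -0.74, Arrb2, a beta-arrestin, at 0.48, and the JNK scaffolds Mapk8ip1 and Mapk8ip2, both dim, at -0.59 and -0.45. Among macrophage and osteoclast markers, Itgam was at 2.0, Ctsk at 1.22, Spi1 at -0.72 and Tnfrsf11a, which encodes RANK, at -0.49. Among the markers of other cell types, all of them dim, Epcam was at -1.54 (69.6 and 27.2) and Cd79a at 0.86 (35.4 and 72.9), Cd3e at -0.70 and Col1a2 at -0.55, and their part in the cascade values was not tested.

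**Figure D5:**
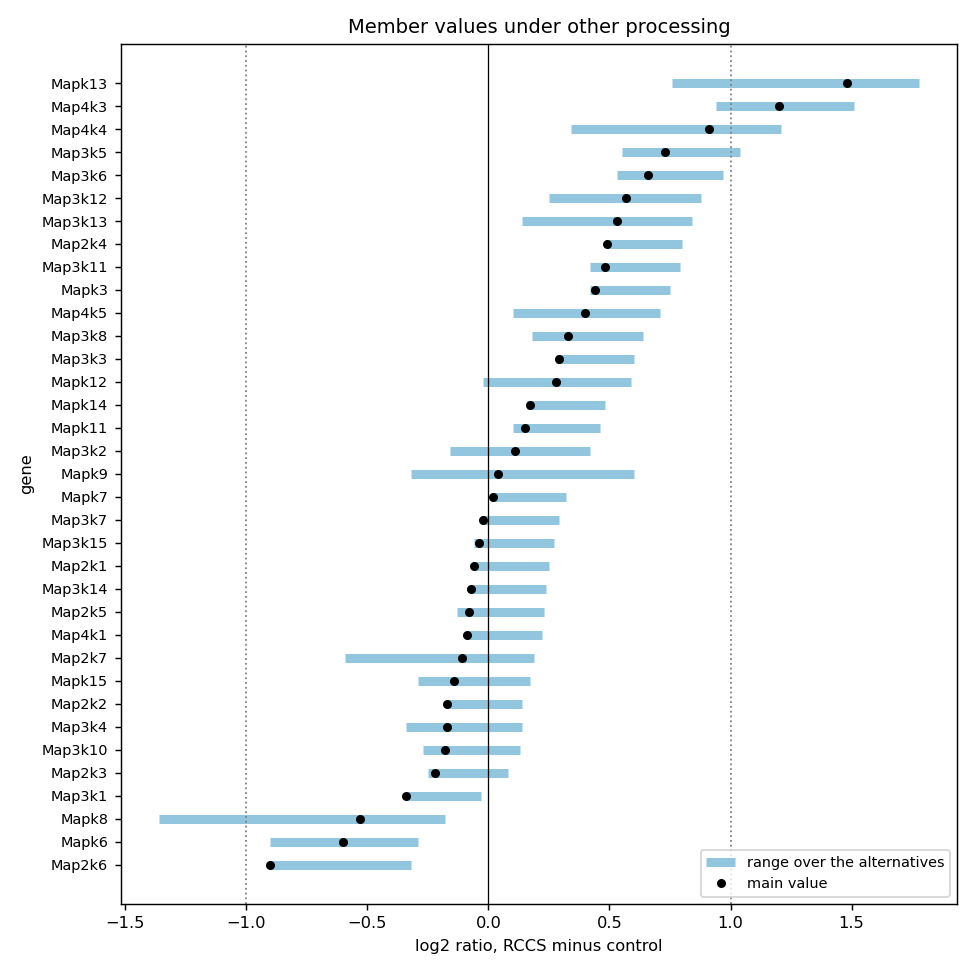
Log2 ratio of 35 measured members, RCCS minus control, as the value reported (black point) and its range over 13 other ways of processing (blue bar). For Map3k2, Map2k6, Mapk12 and Mapk15 the range is over 12. Mapk13 ranges from 0.76 to 1.78 and Map4k3 from 0.94 to 1.51, and dotted lines mark 2-fold differences.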

How the data were processed

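RNA of 2 RAW 264.7 samples, 1 control and 1 RCCS, was hybridised in 1 colour to Agilent whole mouse genome arrays that shared a slide and a scan, per the file headers. The deposited scanner values are intensities made by Agilent Feature Extraction 9.5.3.1, background-subtracted and not scaled between arrays, per the file headers. The authors also deposited a table of 1 ratio per probe and array. Its values equal the processed signal over 849 (control) and over 964 (RCCS), never under 0.01 and with a median of 0.06 in both columns, so each is relative to its own array, with genes not centred.

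Outlier spots (117 and 120) were left out, 0 spots were saturated, and spots of a probe were averaged. A probe was measured where at least 50% of its spots were well above background on both arrays, and log2 ratios of measured probes were averaged per gene. A probe above background on a single array was given as a bound, against the higher of the lowest signal well above background on the other array (24.2 control, 21.2 RCCS) and its own signal there, after scaling. Such a bound leaves out spot error. Gene names are those of the array; accessions of 51 of 78 member probes matched the RefSeq table of GRCm38.p6. No probe coordinates are given, since the sources used here name no build for the array. The 95% interval was propagated from the spot error.

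Named are the members, except 2 measured genes that are in every count and median but are not reported here by name, and up to 4 measured genes of each other list with the largest absolute log2 ratio; Traf6, Txn1, Dusp1, Elk4, Ets1, Fos, Fosl1, Jund, Cd68, Lyz2, Csf1r and Cd14 were named after their values were seen. Members and lists were chosen with earlier results of these data known. The calculation was tested on simulated data. Alternatives were 4 other scalings or normalizations, normexp with an offset of 50 under 2 normalizations, loess, the deposited table, other filters, the brightest probe, other thresholds and, chosen after the data were seen, the 3′-most or 5′-most probe. Python 3.11.15, pandas 2.3.3, R 4.3.3 and limma 3.58.1 were used.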

Additional observations from a re-analysis of the deposited data

How the results depend on the processing

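Each gene value and median was recomputed under 13 alternatives, and each count under 15. Map3k2, Map2k6, Mapk12 and Mapk15 had 12, since the filter for a signal of at least 100 removed them. No called member changed direction. Several members nearer 0 did in some alternatives, among them Map3k7 in 6 of 13, Map4k1 and Map2k1 in 5 each and Map2k2 in 4. The count of members at least 2-fold higher, 2 as reported, was 4 with spike-in scaling, 3 with the 75th percentile of measured probes (Map4k4 at 1.04), 0 with normexp and 75th percentile scaling, 0 with normexp and quantile normalization, 5 at 1.5-fold and 0 at 3-fold. The count at least 2-fold lower, 0 as reported, was 2 at 1.5-fold and 1 with the 5′-most probe of each gene (Mapk8). Spike-in scaling, on 7 of 10 spike-in probes with a median log2 ratio of -0.31, raised all values by 0.31 and the median of all genes to 0.18. It put the medians at 0.34 for the Mapk tier, 0.26 for classical ERK, 0.27 for ERK5 and 0.27 for JNK. Relative to all genes these medians stayed at 0.17, 0.08, 0.10 and 0.09. Over the alternatives the median relative to all genes ranged from 0.34 to 0.63 for Map4k, 0.21 to 0.47 for Map3k, -0.03 to 0.08 for Map2k and 0.14 to 0.28 for Mapk. Unadjusted, the median lay above 0 in 13 of 13 alternatives for Map4k, Map3k, Mapk and p38, in 3 for Map2k, 6 for classical ERK, 5 for ERK5, 5 for JNK and 0 for the atypical kinases. Of all genes 2-fold different, 50.8% were higher as reported, 82.1% with spike-in scaling, 66.7% with the 75th percentile of measured probes, 63.5% with loess and 61.8% with normexp and quantile normalization. The all-gene 2-fold counts of 622 higher and 603 lower became 1201 and 261 with spike-in scaling, 417 and 258 with normexp and quantile normalization, 364 and 346 with normexp and 75th percentile scaling, and 1607 and 1804 with no filter on dim probes. Probes under a signal of about 100, Mapk13 and Map2k6 among them, have wider spot error. No paired analysis was possible because each group has 1 array, and for the same reason no replicate could be left out.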
